A study of Homo sapiens with 6 samples.

Results

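The regions described here are 680 R-loop peaks at transcript ends and in intergenic sequence that were called in untreated HEK293T cells and had no counterpart in the list from treated cells. They were chosen by peak presence: a peak of the untreated list was kept if no peak on the same strand of the treated list overlapped it by 1 bp or more, if it lay on chromosomes 1 to 22 or X, and if its midpoint was outside every promoter window and either inside a terminal window or outside all annotated transcripts. A promoter window began 1000 bp before a transcript start and stopped 100 bp after it. A terminal window began 100 bp before a transcript end and stopped 1000 bp after it. Ends of all annotated transcripts counted, so a transcript end can lie inside a longer transcript of the same gene. Of the 680 peaks, 269 were terminal and 411 intergenic. They were part of 10169 untreated peaks on these chromosomes, and both lists together held 21316 peaks. Absence from the treated list was the criterion of choice and is not a result. No height, fold or p-value came with the peaks, so an absent peak may have been weaker signal rather than no signal.

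The assay was spKAS-seq, in which N3-kethoxal reacts with guanines of single-stranded DNA and the tagged DNA is enriched and sequenced by strand. HEK293T is an established line of human embryonic kidney origin. There were 2 untreated samples, 2 samples exposed to 10 μM N2-heptynyl-dG, a modified deoxyguanosine that cells can incorporate into DNA, for 3 h, and 2 inputs. Cells of both conditions then received 5 mM N3-kethoxal for 10 min. A single peak list per condition was used, so there was no replicate spread and no test between conditions could be made. The peak lists contain no expression levels against which the cell line could be checked.

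In an R-loop, a transcript stays base-paired to the DNA it was copied from, and the coding strand is left unpaired and open to kethoxal. At gene ends, R-loops are known from G-rich pause sites downstream of poly(A) signals, where the helicase senataxin opens the hybrid and the exonuclease XRN2 degrades the downstream RNA. Transcription that continues past the annotated end carries R-loops into sequence that annotation calls intergenic.

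The share of untreated peaks without a same-strand treated peak was 23.2% for terminal peaks and 27.6% for intergenic peaks, which made 25.7% for both classes together. The same share was 21.5% for promoter peaks, 33.4% for gene-body peaks and 25.4% over all classes. Since the rule used this contrast, nothing is read from these shares. The 1968 terminal and intergenic untreated peaks that did overlap a treated peak are called shared, and 733 treated peaks of the same classes without an untreated partner are called treated-only.

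The following sequences show what the single-stranded side of these R-loops can look like. They come from peaks with many bases in G-quadruplex motifs, chosen separately among terminal peaks on the transcript's strand, terminal peaks on the opposite strand and intergenic peaks. A motif was 4 runs of GGG or longer separated by 1 to 7 bases, searched without overlap on the strand of the peak. Each was taken from GRCh37, outside all annotated exons, and is printed 5′ to 3′ on the peak strand with the longest motif in capitals. The first 3 lay just beyond the end of a transcript on the same strand.
AGRN, chr1:992181-992277, plus strand: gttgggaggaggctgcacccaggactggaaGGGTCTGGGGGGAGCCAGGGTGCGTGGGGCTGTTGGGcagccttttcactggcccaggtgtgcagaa
TERF2, chr16:69398107-69398207, minus strand: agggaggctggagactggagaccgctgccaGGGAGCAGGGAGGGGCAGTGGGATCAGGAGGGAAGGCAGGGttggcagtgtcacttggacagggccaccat
ENSG00000289103, chr1:154972580-154972653, minus strand: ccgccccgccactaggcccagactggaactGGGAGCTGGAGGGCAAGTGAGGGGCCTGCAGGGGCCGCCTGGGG

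AGRN encodes agrin, a proteoglycan of the neuromuscular junction. Its peak of 750 bp had its midpoint 493 bp beyond the end and carried 72 motif bases, the most of any terminal peak shown, with a GC skew of 0.31. GC skew is the difference between G and C counts divided by G plus C, taken along the peak strand, so a positive value means more G on that strand. TERF2 encodes a telomere-binding protein of the shelterin complex. Its peak lay 947 bp beyond a TERF2 transcript end, in an intron of a longer transcript, and had a skew of -0.03 with 57 motif bases. ENSG00000289103 is a long noncoding RNA gene, and its peak of 500 bp had a skew of -0.15 and a GC content of 62.0%. A motif on the peak strand therefore occurred both in peaks with more G and in peaks with more C on that strand.

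The next sequence is from a terminal peak on the strand opposite to the transcript whose end it adjoins. It is shown with flanks of 12 bases, since exons lie close by. Its last, longer run of G counts as more than 1 run, since the spacer of the motif may itself be a G.
ENSG00000285570, chr1:156675117-156675164, minus strand: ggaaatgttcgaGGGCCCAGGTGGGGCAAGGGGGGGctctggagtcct

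The following 2 sequences are from intergenic peaks. The first is named by its nearest transcript, 27624 bp away, and the second lay 1357 bp beyond the end of the named gene on its strand.
RP11-782C8.8, chr1:143274032-143274127, minus strand: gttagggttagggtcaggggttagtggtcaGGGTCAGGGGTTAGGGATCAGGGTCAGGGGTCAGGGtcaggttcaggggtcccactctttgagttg
TMEM121, chr14:105997859-105997953, plus strand: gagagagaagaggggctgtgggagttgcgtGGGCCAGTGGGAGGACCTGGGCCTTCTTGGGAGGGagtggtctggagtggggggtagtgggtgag

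The peak near RP11-782C8.8 held 95 motif bases, the most of all sequences shown, but 81.6% of its 31-base words occurred more than once in the genome, so reads from it may map to several places. In the TMEM121 peak of 1250 bp, none of the words was repeated, and the GC content was 64.3%.

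The median width of the peaks was 750 bp, which was also the median of the whole untreated and of the whole treated list. Within the terminal and intergenic classes, shared peaks had a median of 1250 bp and treated-only peaks 750 bp. Of the 680 peaks, 262 (38.5%, 95% Wilson interval 34.9 to 42.2) had the smallest width of 500 bp. The same width made up 14.7% (13.2 to 16.4) of the shared and 45.8% (42.3 to 49.5) of the treated-only peaks. Peaks of 2000 bp or more numbered 2 among the 680 and 368 among the 1968 shared peaks. A wider peak has more positions at which a treated peak can overlap it, so width and absence from the other list are not independent, and where a comparison with the shared peaks is also given within a width class, the text says so. Intervals on shares and medians here cover counting error among peaks only.

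Peaks at transcript ends lay mostly on the strand of the transcript. Of the 269 terminal peaks, 203 were on the transcript's strand, 12 were at ends of transcripts on both strands and 54 were only on the opposite strand. The same-strand share, ends on both strands included, was 79.9% (74.7 to 84.3). It was 81.2% (78.5 to 83.6) for shared and 75.8% (70.6 to 80.3) for treated-only terminal peaks. For 500-bp windows placed every 10000 bp along the genome and read on both strands, the share among terminal windows was 51.4% (50.8 to 52.0). Of the 54 opposite-strand peaks, 35 lay within 5000 bp downstream of some other transcript end on their own strand.

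The position of the terminal peaks was set in part by their window. The midpoint was downstream of the nearest qualifying end in 250 of 269 (92.9%) and a median of 553 bp past it (95% interval of the median 487 to 608), in a window that itself reaches 1000 bp downstream and only 100 bp upstream. Shared peaks had a median of 572 bp, and treated-only peaks one of 601 bp. The end itself was covered by 94 of the 269 peaks (34.9%, 29.5 to 40.8), against 54.1% (50.8 to 57.4) of shared and 34.01% (28.9 to 39.6) of treated-only terminal peaks. At a width of 500 bp the shares were 28.2% (20.6 to 37.2), 25.8% (19.0 to 33.99) and 21.9% (15.8 to 29.5), and at 750 bp or more they were 39.6% (32.4 to 47.4), 58.9% (55.3 to 62.3) and 44.4% (36.9 to 52.1). The midpoint fell in an untranslated region for 50 peaks, in another exon for 27, in an intron of some transcript for 87 and outside all transcripts for 105. The adjoining transcript belonged to a protein-coding gene for 220 peaks, a long noncoding RNA gene for 34, a pseudogene for 8 and a small RNA gene for 4.

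Most intergenic peaks were also close behind a gene. Of the 411, 286 (69.6%, 65.0 to 73.8) had their midpoint within 5000 bp downstream of a transcript end on the same strand. Among intergenic genome windows, 5.07% (4.98 to 5.17) did. The end belonged to a protein-coding gene in 263 of the 286. A further 26 peaks lay upstream of a transcript start on the opposite strand and 12 preceded a start on their own strand, each within 5000 bp. The other 87 had none of these within 5000 bp and are called remote. Ends of transcripts on the opposite strand were not considered for this. The share within 5000 bp downstream was 78.7% (76.1 to 81.0) for shared and 62.6% (58.0 to 67.0) for treated-only intergenic peaks. Among peaks of 500 bp only, the order was different, with 56.6% (48.6 to 64.2) for untreated-only, 41.4% (34.1 to 49.1) for shared and 44.2% (37.5 to 51.2) for treated-only peaks. Among peaks of 750 bp or more, the values were 77.2% (71.7 to 81.9), 85.3% (82.8 to 87.4) and 78.1% (72.4 to 82.9).

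For positions, 501 of the 680 peaks were tied to a transcript end on their own strand. They were the 215 terminal peaks on the transcript's strand and the 286 intergenic peaks within 5000 bp downstream of an end. Opposite-strand terminal peaks were left out, including 35 that lay within 5000 bp downstream of another end on their own strand. In the 501, the midpoint was a median of 1224 bp past the end, compared with 1092 bp in 1571 shared peaks and 1133 bp in 498 treated-only peaks. Of the 501, 16 had their midpoint before the end, 71 within the first 500 bp after it and 128 between 500 and 1000 bp. A further 149 lay between 1000 and 2000 bp, 92 between 2000 and 3000 bp, 32 between 3000 and 4000 bp and 13 between 4000 and 5000 bp. As shares of each group, the 1000 to 2000 bp stretch held 29.7% of these peaks, 34.6% of the shared and 25.5% of the treated-only peaks. The 2000 to 3000 bp stretch held 18.4%, 13.4% and 16.1%, and the 3000 to 4000 bp stretch 6.39%, 3.69% and 9.04%. These shares were not compared within a width class. The rule shapes them in part. Up to 1000 bp past an end a midpoint could lie inside a transcript, but farther out it counted only outside all transcripts.

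**Figure D1:**
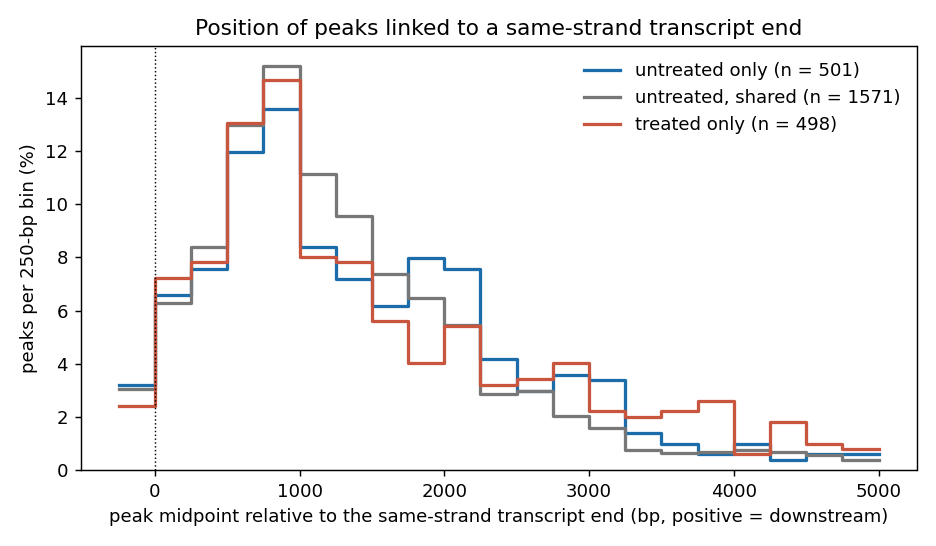
Percentage of peaks per 250-bp bin (y axis) by the position of the peak midpoint relative to the same-strand transcript end (x axis, bp, positive downstream) for untreated-only, shared untreated and treated-only peaks, where the first bin holds only the 100 bp before an end that the terminal window reaches. All 3 groups are highest between 500 and 1000 bp past the end, and the untreated-only line lies below the shared line between 1000 and 1750 bp and above it between 1750 and 3500 bp. The drop past 1000 bp is in part set by the rule, since midpoints beyond it counted only outside all transcripts.

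For 269 of the 501 peaks, neither list held another same-strand peak at an end or a promoter of the gene, and for 232 at least 1 list did. The treated list held a same-strand peak at an end of the same gene, from 100 bp before to 5000 bp after it, for 117 of the 501 peaks (23.4%, 19.9 to 27.3). A same-strand peak at the gene's promoter was in the untreated list for 103 (20.6%, 17.3 to 24.3) and in the treated list for 115 (22.95%, 19.5 to 26.8). For genes of shared peaks, the promoter shares were 24.1% (22.1 to 26.3) in the untreated and 27.8% (25.7 to 30.1) in the treated list, and for genes of treated-only peaks 16.7% (13.7 to 20.2) and 20.5% (17.2 to 24.2). The untreated list held a same-strand peak at an end of the gene for 22.3% (18.9 to 26.1) of the 498 treated-only peaks tied to an end. Altogether 555 peaks were linked to 551 distinct genes on either strand, and 125 to none. CMIP, GOLGB1, PGAM1 and WASH6P had 2 peaks each. PGAM1 encodes phosphoglycerate mutase of glycolysis. Its peaks at chr10:99192899-99193398 and chr10:99193649-99194898 lay at and just past the end, and the nearest same-strand treated peak was 253750 and 252250 bp away from them.

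The gap to the treated list is part of the contrast that chose the peaks and is given as a description. The nearest same-strand treated peak lay at a median gap of 44534 bp (35500 to 49750). It touched the peak in 27 cases, lay within 250 bp in 40 and within 1000 bp in 95 (14.0%, 11.6 to 16.8). It was within 5000 bp for 146 peaks (21.5%, 18.5 to 24.7) and over 100 kb away for 226 (33.2%, 29.8 to 36.9). Treated-only peaks, measured to the untreated list, had a median gap of 45250 bp, with 12.7% (10.5 to 15.3) within 1000 bp. For the ordinary spacing of peaks, the nearest same-strand peak of the same list was at a median of 32375 bp from shared untreated peaks, with 16.3% within 5000 bp, and at 43750 bp from treated-only peaks, with 17.5% within 5000 bp. A treated peak within 1000 bp was found for 53 of 269 terminal peaks (19.7%, 15.4 to 24.9) and for 42 of 411 intergenic peaks (10.2%, 7.65 to 13.5). Terminal peaks were also the closer spaced within the untreated list, where shared terminal peaks had a median gap of 24250 bp and shared intergenic ones 39750 bp. On the opposite strand, 1 of the 680 peaks overlapped a treated peak.

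**Figure D2:**
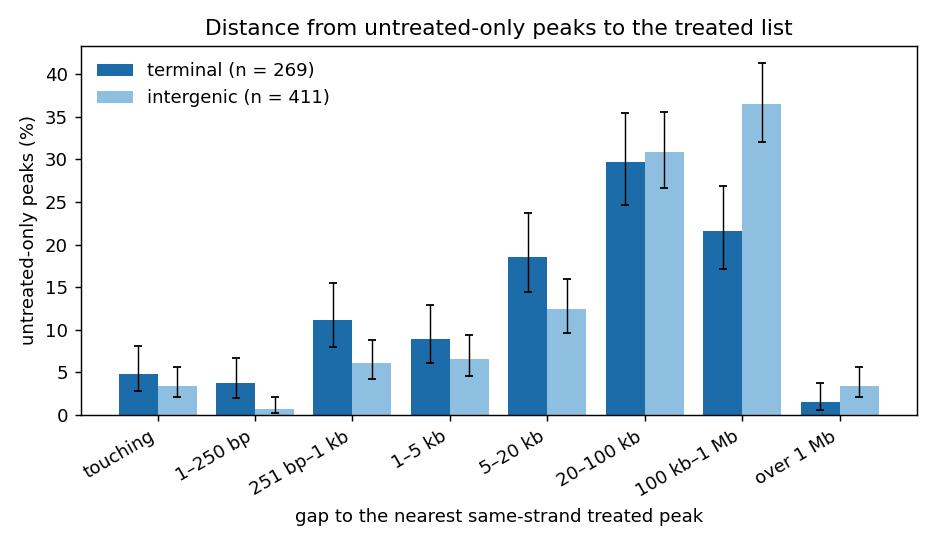
Percentage of untreated-only peaks (y axis) by the gap to the nearest same-strand treated peak (x axis) for 269 terminal and 411 intergenic peaks, with 95% Wilson intervals as error bars. Gaps between 20 kb and 1 Mb make up the tallest bars in both classes, and touching peaks make up 4.83% of terminal and 3.41% of intergenic peaks.

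Peak borders of both lists fell on common steps of 250 bp: 676 of the 680 gaps were whole multiples of 250 bp. The smallest overlap of a shared terminal or intergenic peak was accordingly 250 bp, and 81 of the 1968 shared peaks overlapped by that much or less. Just inside the rule were the 27 touching peaks. On the minus strand, the touching treated peak was downstream in 13 of 14 cases. On the plus strand, it was downstream in 7 and upstream in 6. The widest touching peaks were at KIF14, a mitotic kinesin, with 1250 bp at chr1:200518463-200519712, and at AMD1, the adenosylmethionine decarboxylase of polyamine synthesis, with 1250 bp at chr6:111221332-111222581. At GOLGA2, which encodes a Golgi matrix protein, a touching peak of 1250 bp lay on the strand opposite to the gene. It was 1125 bp past DNM1 on that gene's strand. At ENSG00000174171, a touching peak of 1000 bp was likewise on the opposite strand, with the nearest end on its own strand 11769 bp upstream. Just outside the rule were peaks near LINC01355, PFN1P3, RNU6-487P and ENSG00000279306, each 500 bp wide with a 250-bp overlap.

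The widest terminal peak was at PPP2R1A, the scaffold subunit of protein phosphatase 2A. It spanned 2000 bp at chr19:52732682-52734681, 911 bp past a transcript end on the plus strand, with its nearest same-strand treated peak 38250 bp away. No other treated peak was in its end region, while the treated list did have a promoter peak for this gene. The peak at ZNF408, a zinc-finger gene, was 1750 bp wide, lay 883 bp past the end and had a skew of 0.18. This gene had promoter peaks in both lists. At H3C7, a replication-dependent histone H3 gene whose mRNA has no poly(A) tail, the peak of 1750 bp covered the end, with the midpoint 6 bp before it.

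At FNDC10, the peak of 1750 bp had a GC content of 63.0% and a G-quadruplex motif on each strand. At MARCHF9, a membrane-bound ubiquitin ligase, the peak of 1500 bp lay 597 bp past a transcript end and held no repeated 31-base words. At ERVK13-1, a long noncoding RNA named for an endogenous retrovirus, 71.1% of the words of a 1500-bp peak were repeated. The peak of 1500 bp at ENSG00000258753 was on the strand opposite to that gene, and it lay 2320 bp downstream of GMFB on that gene's strand.

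The widest intergenic peak lay 1473 bp past RBM42, an RNA-binding protein gene, and spanned 2000 bp at chr19:36129061-36131060. The next were 1750 bp wide. They included peaks 1224 bp past FNTA, the alpha subunit of farnesyltransferase, 2178 bp past SCYL2 and 1774 bp past the noncoding PAXIP1-DT. A further peak lay 1230 bp past ATOX1, a copper chaperone. Their gaps to the nearest same-strand treated peak were 691250 bp at FNTA, 75500 bp at SCYL2, 197250 bp at PAXIP1-DT and 16000 bp at ATOX1. The remaining peak of this width, at chrX:61001-62750, was remote from any gene, near the start of the X chromosome sequence, and had a treated peak 1500 bp away.

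The terminal peaks farthest from any same-strand treated peak were at ENSG00000244125 (gap 2200597 bp, width 500 bp), OTULIN-DT (1803500 bp, 1000 bp) and MAGI2 (1638250 bp, 750 bp), the last a synaptic scaffold gene. The farthest intergenic peaks were 500 bp wide. They were at chr4:190058245-190058744, where all 31-base words were repeated (100%), at chr14:84105632-84106131, where 82.3% were, and 2797 bp past AUTS2, where 12.3% were.

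The following counts give the 680 peaks by gene group, and groups of many genes can hold more of them. The counts are out of the terminal and intergenic untreated peaks of each group and stand beside the 25.7% for all such peaks. Since the rule used this contrast, nothing is read from them. Of 36 such peaks at cytosolic ribosomal protein genes, 1 was untreated-only, at RPL32. It was 750 bp wide, lay 69 bp past a transcript end and was 500 bp from a treated peak. The replication-dependent histone genes had 1 of 15, at H3C7, and the small nucleolar RNA host genes had 0 of 9. Heat shock protein genes had 1 of 12, at DNAJB5, and actin and tubulin genes had 1 of 6, at TUBB2B.

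Genes of the splicing machinery had 2 of 23 peaks, at SF3B1 and SF3B6, both subunits of the SF3B complex that recognises the branch site. The SF3B1 peak lay 747 bp past the end and 750 bp from a treated peak. The SF3B6 peak lay 2461 bp past the end, and that gene had promoter peaks in both lists. Among R-loop and termination factors, 2 of 5 peaks were untreated-only. They were at CSTF1, a subunit of the cleavage stimulation factor, 1792 bp past the end, and at PCF11, which releases polymerase at gene ends, 467 bp past a transcript end within an exon of a longer transcript.

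Translation factor genes had 4 of 23, at EIF1AD, EIF3K, EEF1B2 and EEF1A2. The EEF1B2 peak lay 965 bp past the end and 500 bp from a treated peak, and the gene had promoter peaks in both lists. The EIF3K peak lay 3128 bp past the end and had a promoter peak in the untreated list only. Mitochondrial ribosomal protein genes had 4 of 16, at MRPS5, MRPL57, MRPS12 and MRPL30. The MRPL57 peak was 500 bp from a treated peak and the MRPS12 peak 199000 bp. Respiratory chain genes had 4 of 27, at the complex I genes NDUFC2 and NDUFV3 and the cytochrome c oxidase genes COX4I1 and COX6B2. In the COX4I1 peak, 86.6% of the words were repeated. The COX6B2 peak lay on the strand opposite to that gene, 3193 bp past KMT5C on its own strand.

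Zinc-finger genes had 14 of 70 peaks (20.0%), the widest at ZNF408, ZNF480, ZNF697 and ZNF593. The ZNF480 peak of 1500 bp was 7 bp past a transcript end and 750 bp from a treated peak, whereas the ZNF697 peak was 530000 bp from one. Long noncoding RNA genes had 49 of 209 (23.4%) and pseudogenes 13 of 57 (22.8%). Small RNA genes had 4 of 50. These were a Y_RNA copy, RNU6-693P, TRNAI6 and RNU1-63P, and the first of them had the only peak among these 4 wider than 500 bp. The RNU6-693P peak lay on the strand opposite to that gene, 1490 bp past SUCO on its own strand. The 4 widest pseudogene peaks, at RNA5SP317, ENSG00000270892, HMGN1P12 and ENSG00000239544, were all on the strand opposite to the pseudogene. On its own strand, the peak at ENSG00000270892 lay 2508 bp past C5orf24, and the peak at ENSG00000239544 lay 1056 bp past ENSG00000259015. For the peaks at RNA5SP317 and HMGN1P12, the nearest such end was 6200 and 25523 bp upstream.

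Base composition was close to balanced between G and C. The median GC content of the 680 peaks was 48.1% (47.4 to 48.8), against 49.8% (49.4 to 50.3) for shared and 50.8% for treated-only peaks. Genome windows had 42.6% in terminal and 39.2% in intergenic sequence. The median skew was 0.01 (0.0021 to 0.0202), with 368 of 680 peaks (54.1%) above 0. The shared peaks had a median skew of 0.00 (-0.0047 to 0.0049) and the treated-only peaks -0.02 (-0.0325 to -0.0174). At a width of 500 bp, the untreated-only and treated-only medians were -0.0043 (-0.0179 to 0.0138) and -0.0367 (-0.0450 to -0.0174), and at 750 bp or more 0.016 (0.0067 to 0.029) and -0.021 (-0.0295 to -0.0098). Shared peaks had medians of -0.0208 (-0.0342 to -0.0033) at 500 bp and 0.0028 (-0.0023 to 0.0078) at 750 bp or more. These intervals run over the peaks of 1 list per condition, so they are no test between the conditions.

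**Figure D3:**
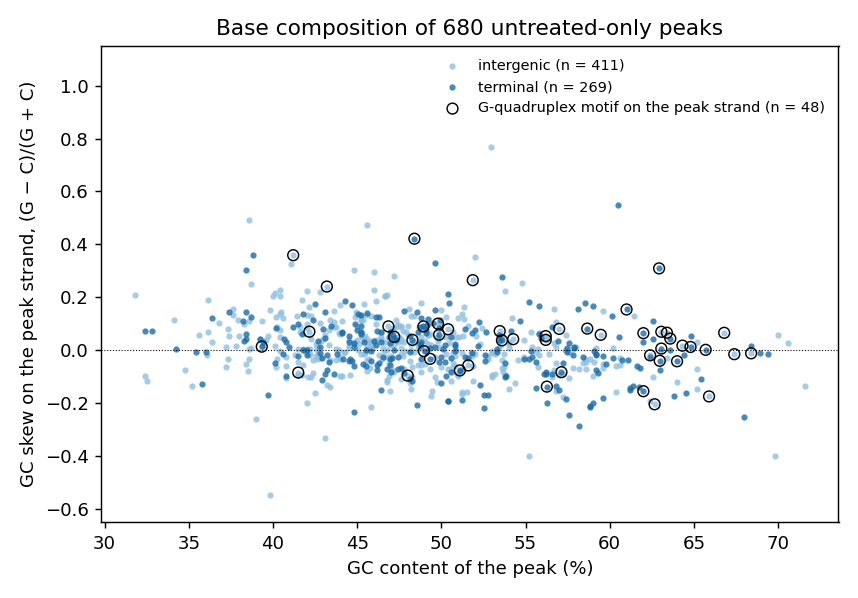
GC content (x axis, %) against GC skew on the peak strand (y axis) for 411 intergenic and 269 terminal untreated-only peaks, each point a peak, with circles around the 48 peaks that hold a G-quadruplex motif on their strand. Most points lie near a skew of 0 over the whole range of GC content, with isolated peaks up to 0.77 and down to -0.55.

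The highest and the lowest skew were in peaks with much repeated sequence. The sequences are 120 bases from the middle of the peak, outside exons, with runs of GGG or longer in capitals for the high-skew peaks and runs of CCC or longer for the low-skew peak. The high-skew sequences were added after their values had been seen.
DIRAS1, chr19:2714285-2714404, minus strand: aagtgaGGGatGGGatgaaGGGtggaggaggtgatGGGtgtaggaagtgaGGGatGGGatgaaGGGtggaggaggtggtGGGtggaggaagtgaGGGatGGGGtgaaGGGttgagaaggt
ENSG00000248994, chr5:2146321-2146440, minus strand: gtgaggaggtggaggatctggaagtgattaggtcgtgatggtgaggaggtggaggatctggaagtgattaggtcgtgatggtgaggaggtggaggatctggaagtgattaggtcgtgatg
CR786580.2, chr9:68491806-68491925, plus strand: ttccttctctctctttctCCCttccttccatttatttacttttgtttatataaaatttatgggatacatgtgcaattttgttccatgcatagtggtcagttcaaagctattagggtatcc

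DIRAS1 encodes a small GTPase of the Ras family. Its peak of 1500 bp, 220 bp past the end, had a skew of 0.55 and 47.8% repeated words, and a treated peak lay 750 bp away in the same end region. The peak near ENSG00000248994, which was remote from any gene, had the highest skew of all, 0.77, with 70.0% repeated words, and its printed stretch is a tandem repeat. The peak nearest CR786580.2 had the lowest skew, -0.55, and 73.0% repeated words. High skews outside such repeats were found at SH3BP5L, 0.42 with no repeated words, and 2421 bp past CLCN3, 0.49 with 23.4%. Low skews were found at C3, -0.29, whose peak was centred 1 bp past the end of this complement gene, at UNKL, -0.25, and at chr1:146009073-146009572, -0.40 with 91.7% repeated words.

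A G-quadruplex motif on the peak strand was present in 48 of 680 peaks (7.06%, 5.37 to 9.23), in 20 of 269 terminal and 28 of 411 intergenic ones. Shared peaks had it in 15.1% (13.6 to 16.8) and treated-only peaks in 9.14% (7.26 to 11.4). On the other strand, the shares were 9.26%, 18.4% and 15.0%. Genome windows of 500 bp had the motif in 3.92% of terminal and 2.15% of intergenic windows. Among peaks of 500 bp, which match these windows in width but not in GC content, the shares were 6.49% (4.09 to 10.1) for untreated-only, 8.28% (5.62 to 12.02) for shared and 10.4% (7.59 to 14.1) for treated-only peaks. Their median GC contents were 50.4%, 52.7% and 52.3%, against 42.6% in terminal and 39.2% in intergenic windows. Among peaks of 750 bp or more, 7.42% (5.27 to 10.3) of untreated-only, 16.3% (14.6 to 18.2) of shared and 8.06% (5.77 to 11.2) of treated-only peaks had it. The shared peaks of that class were also wider, with a median of 1250 bp against 1000 bp for untreated-only and 750 bp for treated-only peaks.

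**Figure D4:**
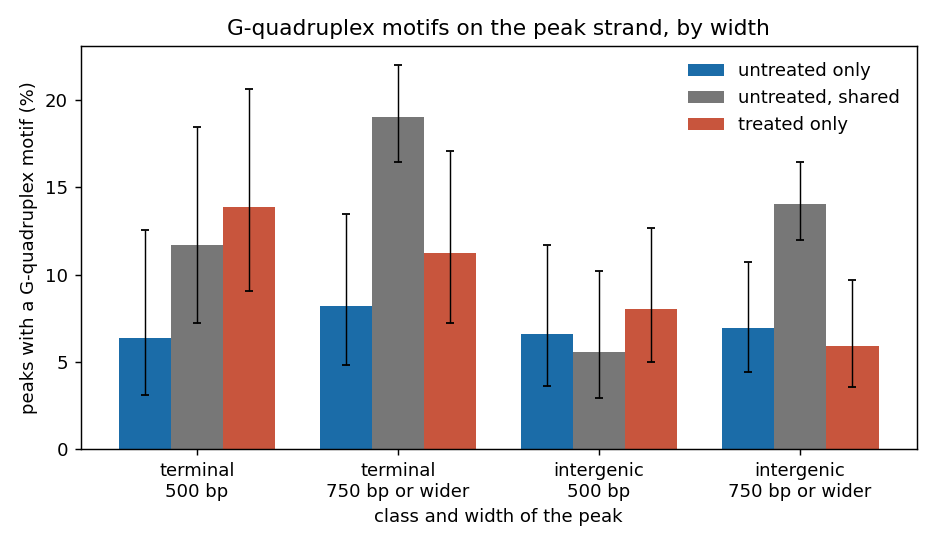
Percentage of peaks with a G-quadruplex motif on the peak strand (y axis) for untreated-only, shared and treated-only peaks, split by class and width (x axis), with 95% Wilson intervals as error bars. At 750 bp or more the shared peaks stand above the untreated-only peaks, at 19.1% against 8.18% for terminal and 14.1% against 6.95% for intergenic peaks, with treated-only peaks at 11.3% and 5.91%.

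The hexamer AATAAA, the most common poly(A) signal, was on the peak strand in 237 of 680 peaks (34.9%, 31.4 to 38.5). It was there in 43.2% (41.1 to 45.4) of shared and 24.7% (21.7 to 27.9) of treated-only peaks. On the opposite strand the shares were 32.5% (29.1 to 36.1), 43.5% (41.4 to 45.7) and 31.8% (28.5 to 35.2). The share on the peak strand depends on width, and at 500 bp it was 18.7% (14.4 to 23.9), 21.7% (17.4 to 26.8) and 16.4% (12.8 to 20.7). At 750 bp or more it was 45.0% (40.3 to 49.8) for untreated-only, 47.0% (44.6 to 49.4) for shared and 31.7% (27.4 to 36.5) for treated-only peaks, whose median widths in that class were 1000, 1250 and 750 bp. Terminal genome windows of 500 bp had it in 35.9% and intergenic ones in 39.9%, against the 18.7% of untreated-only peaks of that width, whose median GC content was 50.4%.

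Remote intergenic peaks, as defined above, differed from those downstream of a same-strand end. Their nearest transcript on either strand was a median of 10038 bp away, against 1859 bp for the downstream peaks. Peaks of 500 bp made up 56.3% of the remote and 30.1% of the downstream peaks, and these groups were not compared within a width class. The 87 remote intergenic peaks had a median width of 500 bp and a median GC content of 49.7%. In 36 of them (41.4%), over 50% of the 31-base words occurred more than once in the genome. Among the 286 peaks downstream of a same-strand end, this was so for 30 (10.5%), with a median width of 750 bp and a median GC content of 46.7%. It was so for 27 of 215 terminal peaks on the transcript strand and 6 of 54 on the opposite strand. A treated peak lay within 1000 bp of 2 of the 87 remote peaks and of 36 of the 286 downstream peaks. Over all 680 peaks, 107 (15.7%, 13.2 to 18.7) were repeated to this extent, against 10.5% (9.19 to 11.9) of shared and 16.9% (14.4 to 19.8) of treated-only peaks. At 500 bp the shares were 19.1% (14.8 to 24.3), 19.3% (15.2 to 24.2) and 23.8% (19.6 to 28.6), and at 750 bp or more 13.6% (10.7 to 17.3), 8.94% (7.67 to 10.4) and 11.1% (8.36 to 14.6). The part of repeated sequence in the absence of a treated peak was not tested.

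The 680 peaks were spread over all chromosomes considered. They made up between 15.4% (9.39 to 24.2) of the terminal and intergenic untreated peaks on chromosome 22, 14 of 91, and 35.4% (28.1 to 43.4) on chromosome 2, 52 of 147. This share is the contrast the rule used, so nothing is read from its differences. Chromosome 1 had the most, 83 of 335 (24.8%). Chromosome 19, which holds many genes in little space, had 44 of 229 (19.2%, 14.6 to 24.8), and chromosome X had 37 of 119 (31.1%, 23.5 to 39.9).

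**Figure D5:**
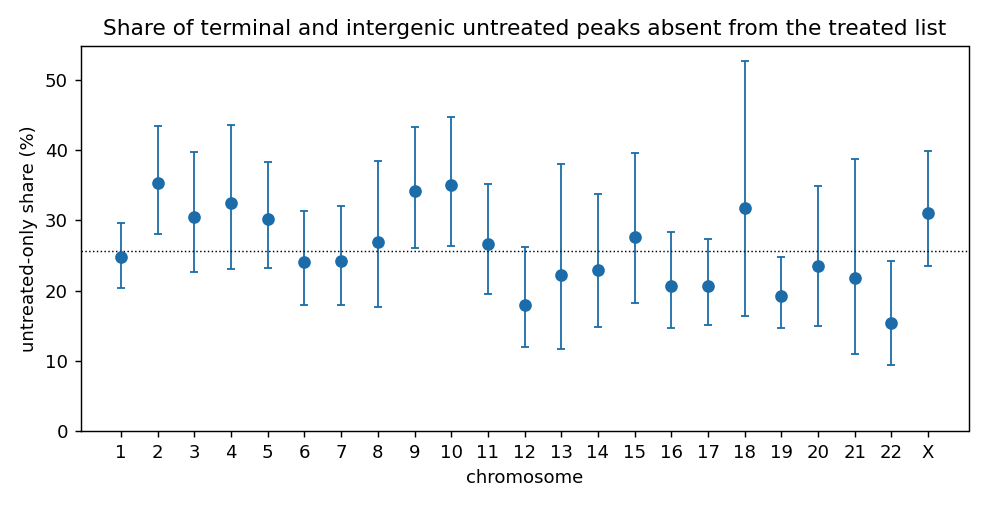
Share of terminal and intergenic untreated peaks that had no same-strand treated overlap (y axis, %) on each chromosome (x axis), with 95% Wilson intervals as error bars and a dotted line at the share over all chromosomes. The points range from 15.4% to 35.4% and are a description of the choice of peaks.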

How the data were processed

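HEK293T cells were profiled by spKAS-seq with 2 untreated samples, 2 samples exposed to N2-heptynyl-dG and 2 inputs. Per the methods and the submitters' processing notes, the authors used Trim Galore for trimming, Bowtie2 with hg19 for alignment and Picard MarkDuplicates for duplicates. They defined R-loops from 2 replicates by an earlier procedure whose thresholds were not given in the sources used here. The deposited lists, 1 per condition and each attached to replicate 1, hold only peak positions and strands (positions in bp, no score, ratio or count), so the depth is unknown. They held 10231 untreated and 11085 treated peaks. How reads from repeated sequence were placed could affect peaks there and was not tested.

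Overlaps were computed with strand on GENCODE release 44 lifted to GRCh37 (254413 transcripts) in Python 3.11.15 and checked against bedtools 2.31.1, which gave the same 2582 untreated peaks without a treated overlap. Class assignment was tested on 1600 simulated midpoints at window borders, with 0 wrong. Composition was read from GRCh37, and repeated words were 31-base words present more than once on either strand. Terminal peaks were named by the nearest qualifying end, same-strand and protein-coding genes first. Named were the 8 widest terminal and 6 widest intergenic peaks (ties by higher skew, then position), the peaks at genes of 14 lists (up to 4 per list), the 3 farthest from a treated peak in each class, up to 4 touching and 4 least-overlapping peaks, the extremes of skew and the sequences shown. Members and lists were chosen with earlier results of these data known. Shares have 95% Wilson intervals and medians have 95% order-statistic intervals. No test between conditions was possible. Alternatives covered the overlap rule, windows, annotation, assignment, width, distance and motif. One sequence is not reported here.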

Additional observations from a re-analysis of the deposited data

How the results depend on the processing

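Of 78 recomputed values of 9 results, 52 stayed within the interval of the reported value (or, for the count, within 1.5 times it) and 26 moved beyond it. The count of 680 lay between 573 and 891 under all alternatives except those that kept only peaks of 750 bp or more (418) or of 500 bp (262). The 39.6% terminal share became 66.9% with windows of 2000 bp on either side, 26.0% with protein-coding genes only and 53.2% with assignment by any overlap, and the 79.9% same-strand share became 93.7% and 85.5% with the first and last of these. The 14.0% with a treated peak within 1000 bp became 17.6% for 500-bp peaks and 21.5% within 5 kb. It became 27.5% when a shared peak had to be covered by 50%. Every peak added by that setting overlaps a treated peak and so counts as near by construction. The share was 0 by construction when a treated peak within 1000 bp counted as shared. The median skew of 0.0107 became -0.0043 for 500-bp peaks, so its sign is not stable. The 7.06% with a G-quadruplex motif became 14.6% with loops of 1 to 12 bases and 77.4% with runs of 2 or more G. The share of intergenic peaks behind a same-strand end ranged from 50.5% to 88.3%. Leaving out peaks with over 50% repeated words, added after seeing the data, left 573 peaks and moved only that last share, to 76.0%. No paired analysis was possible because there is 1 list per condition, and for the same reason replicates could not be left out. The depth behind a peak is unknown, so absence cannot be told from a signal below the calling threshold.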
